A study of Mus with 6 samples.

Results

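The microRNAs miR-193b and miR-365-1 are encoded side by side on mouse chromosome 16, and their 4 mature products (mmu-miR-193b-3p, mmu-miR-193b-5p, mmu-miR-365-3p and mmu-miR-365-1-5p, written below without the species prefix) were followed by name in small RNA libraries of adipocytes. All 4 names were found, of 929 known miRNA names that stand in all 6 deposited tables. The libraries came from adipocytes of wild-type (WT) C57BL/6 mice, 3 from a control group and 3 from a group exposed to chronic intermittent hypoxia (CIH), in which oxygen falls and recovers repeatedly. The labels give neither the age of the animals, nor the fat depot, nor the length of the exposure, and they do not say whether the adipocytes were brown or white. Whether each library is a separate animal or culture is not stated, and the spread behind the p-values is that among these libraries, possibly technical.

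A miRNA hairpin is cut by Drosha and Dicer into a duplex, of which one strand (the 5p or the 3p arm) is usually kept in Argonaute and the other is mostly degraded. The retained strand represses mRNAs that pair with its seed, the bases near its 5′ end. The miR-193b and miR-365 pair has been reported to be induced in brown adipocytes and to favour brown over muscle differentiation by repressing Runx1t1, although mice without the cluster were later reported to form brown fat. Mammals carry a second copy of the pair, miR-193a with miR-365-2. miR-193a-3p and miR-193b-3p share a seed, and the mature miR-365-3p is the same from both copies, so its reads cannot be assigned to one of them. miR-365-1-5p and miR-365-2-5p, in contrast, each report on one copy.

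In the RefSeq annotation of GRCm38.p6, Mir193b lies on chromosome 16 from 13449523 to 13449601 and Mir365-1 from 13453840 to 13453926, with 4238 bases between them. Both lie within the spans of the long non-coding RNA genes Gm32817 and Gm53058, and the flanking protein-coding genes are Mrtfb and Parn. The second copy lies on chromosome 11, with Mir193a from 79711969 to 79712034 and Mir365-2 from 79726400 to 79726511, separated by 14365 bases. No other annotated gene overlaps these 2 hairpins, and their nearest protein-coding genes are Rab11fip4 and Utp6.

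Total counts ran from 6291101 to 11264151 per library, so that the floor of 3 counts lay at 0.266 to 0.477 CPM (counts divided by the library total and scaled to a common total). Values in threes follow the library numbers 1, 2 and 3. Such floors, and the intervals below, allow for counting error alone. The 2 libraries numbered 3 stand apart: their tables list 1186 names against 1053 in the other 4, and miR-148a-3p took 49.4% of control library 3 and 24.9% of CIH library 3 against 2.81% to 5.53% elsewhere. Values are therefore also given within the libraries numbered 1 and 2 and for the pair numbered 3. No miRNA is found in adipocytes alone, but 6 miRNAs abundant in fat together made up 17.4% to 60.1% of each library. Summed leukocyte markers stood between 0.266 and 4.29 CPM, with miR-223-3p at 0 counts in both libraries numbered 3. The 2 endothelial markers summed to 33.8 to 137 CPM and the 3 erythroid markers to 21.0 to 154 CPM, and the 3 muscle markers of 4 that all tables list summed to 11.6 to 111 CPM.

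The 4 products differed widely in abundance, and their order was the same in every library: miR-365-3p had the most reads, followed by miR-193b-3p, miR-365-1-5p and miR-193b-5p. These are read counts, which also depend on how well each sequence is captured in library preparation. miR-365-3p ranked 106 to 160 among the names of its library, miR-193b-3p ranked 155 to 237, miR-365-1-5p 244 to 412 and miR-193b-5p 353 to 513. In reads, the 3p arm was thus the dominant strand of miR-193b.

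miR-193b-3p, the guide strand of miR-193b, stood at 39.7, 53.1 and 27.0 CPM in the controls (250, 516 and 223 counts). In the CIH libraries it stood at 15.8, 17.6 and 18.2 CPM (116, 177 and 205 counts). Every CIH library lay below every control library. The control mean was 39.9 ± 13.04 CPM and the CIH mean 17.2 ± 1.25 CPM (SD, n = 3 each), or 41.3 ± 7.59 and 16.3 ± 2.52 CPM after TMM scaling. Of the 4 products it was the only one whose CPM ranges did not overlap between the groups over the 6 libraries, against 3.73% of the 456 tested miRNAs with non-overlapping ranges and lower levels in CIH.

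edgeR's quasi-likelihood test over the 6 libraries gave miR-193b-3p a log2 difference of -1.34 (SE 0.42, unadjusted p = 0.0135), the third smallest p of 456 miRNAs, but an adjusted p of 0.833. No miRNA of the 456 (0%) passed that test after adjustment, and 23 had an unadjusted p under 0.05. On simulated counts the same fit called 13.8% of 4-fold changes, so it can miss most changes of that size. DESeq2 and limma-voom also called 0. Within the libraries numbered 1 and 2, miR-193b-3p fell by 1.32 on the log2 scale (SE 0.33, edgeR adjusted p = 0.00714). That fit called 5.23% of 459 miRNAs lower, and it was chosen with earlier results of these data known. The call there depended on the libraries. When control library 1 or 2 was left out, its adjusted p was 0.0631 or 0.475, and when CIH library 1 or 2 was left out it was 0.0649 or 3.9e-05, with log2 differences between -0.96 and -1.58.

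Taken by library number, miR-193b-3p was lower in CIH in each of the 3 pairs. Scaled by total counts, the log2 differences were -1.30, -1.56 and -0.56 in pairs 1, 2 and 3 (0.5 CPM added). After TMM scaling, which allows for the large share of a few miRNAs, they were -1.24, -1.33 and -1.35. In pair 3 the median log2 difference of the 456 tested miRNAs was 0.74 by total counts and 0.05 after TMM scaling. The direction of miR-193b-3p was the same under both, and its size in pair 3 was not.

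**Figure D1:**
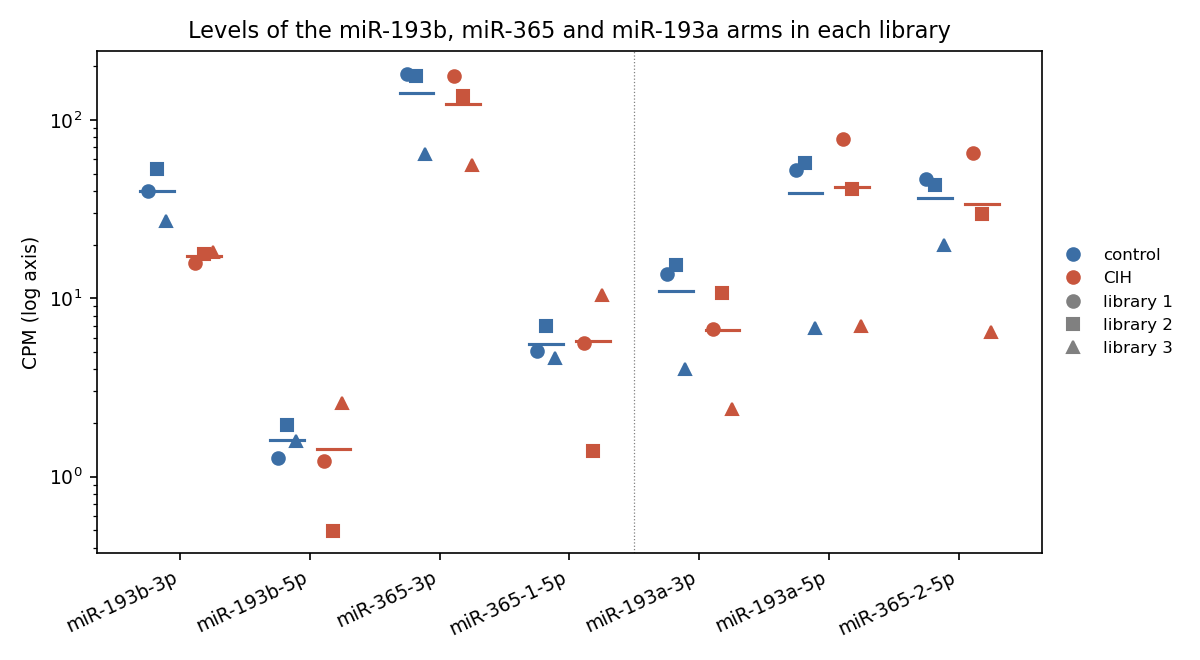
CPM of each mature product (log axis) in the 3 control (blue) and 3 CIH (red) libraries, with a symbol for each library number and a line at the group mean; the 4 products named first are left of the dotted line and the arms of the chromosome 11 copy are right of it. miR-193b-3p lies at 15.8 to 18.2 CPM in CIH and at 27.0 to 53.1 CPM in control, while the ranges of the other 6 overlap.

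miR-193b-5p, the arm that is usually discarded, was near the limit of detection. It had 8, 19 and 13 counts in the controls and 9, 5 and 29 counts in the CIH libraries. These correspond to 1.27, 1.95 and 1.57 CPM for the controls and to 1.23, 0.498 and 2.57 CPM for CIH. The highest and the lowest of the 6 libraries were both CIH libraries. Its log2 difference was -0.41 (SE 0.70, edgeR adjusted p = 0.986) over 6 libraries and -0.86 (SE 0.80, adjusted p = 0.587) within the libraries numbered 1 and 2. Leaving out 1 library moved these values between -1.14 and -0.03, and between -1.43 and -0.41 (without control library 2 the latter gave no value). No difference between the groups was detected with these counts and this spread.

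miR-365-3p, the abundant strand shared by both copies, stood at 181.7, 175.8 and 64.6 CPM in the controls. In the CIH libraries it stood at 175.6, 135.7 and 55.8 CPM. The groups overlapped, and the 2 libraries numbered 3 were the lowest of the 6. The log2 difference was -0.25 (SE 0.54, edgeR adjusted p = 0.988) over the 6 libraries and -0.07 (SE 0.23, adjusted p = 0.893) within those numbered 1 and 2, where it had 1143 to 1709 counts per library. By pairs, the log2 differences were -0.05, -0.37 and -0.21 by total counts and 0.01, -0.14 and -1.01 after TMM scaling. Its size in pair 3 therefore depended on the scaling.

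miR-365-1-5p, the arm that reports on the chromosome 16 copy of miR-365 alone, had 32, 68 and 38 counts in the controls, or 5.09, 6.996 and 4.60 CPM. In the CIH libraries it had 41, 14 and 117 counts, or 5.59, 1.39 and 10.4 CPM. CIH library 2 was the lowest and CIH library 3 the highest of the 6, on either side of all controls. The log2 difference was -0.18 (SE 0.70, edgeR adjusted p = 0.988) over 6 libraries and -0.76 (SE 0.48, adjusted p = 0.395) within the libraries numbered 1 and 2. In pairs 1, 2 and 3 the log2 differences by total counts were 0.12, -1.98 and 1.09, so the 3 pairs had no common direction. Over 6 libraries its sign changed with the scaling, to 0.06 with total counts alone.

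**Figure D2:**
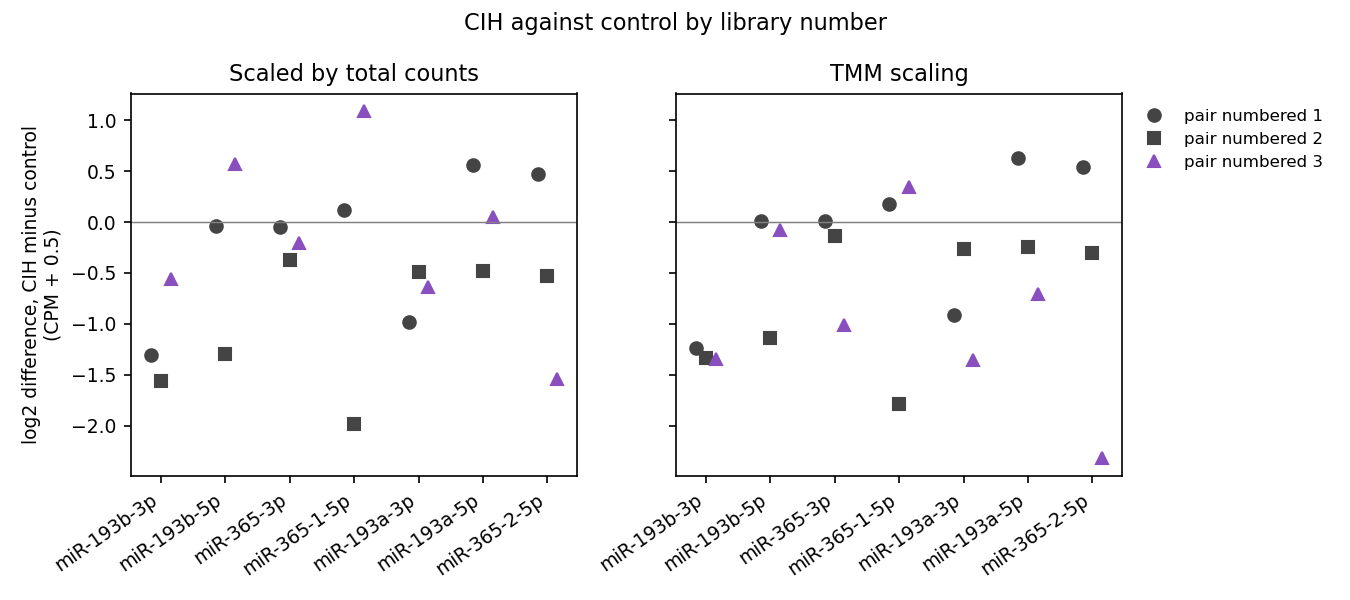
log2 difference of CIH minus control (CPM + 0.5) for each library number, scaled by total counts (left) and by TMM (right), with pair 3 in purple. miR-193b-3p lies below 0 in all 3 pairs under both scalings, at -0.56 to -1.56 and -1.24 to -1.35, whereas miR-365-1-5p ranges from -1.98 to 1.09 by total counts.

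The ratio of 2 products within a library does not depend on library scaling, and 5 such ratios were compared between the groups with a two-sided exact permutation test. With 3 libraries against 3 its smallest p is 0.1, and the p-values adjusted over the 5 ratios were all 1. miR-193b-3p exceeded miR-193b-5p by 29.5, 26.5 and 16.6 times in the controls and by 12.3, 32.3 and 6.97 times in the CIH libraries (0.5 counts added to each). The groups overlapped (mean log2 ratio 4.55 ± 0.44 in control and 3.81 ± 1.12 in CIH, SD, n = 3 each, exact permutation p = 0.4). As a share of miR-193b reads, the 5p arm took 3.10% (exact 95% interval 1.35% to 6.02%), 3.55% (2.15% to 5.49%) and 5.51% (2.97% to 9.24%) in the controls. Its share was 7.20% (3.35% to 13.2%), 2.75% (0.898% to 6.29%) and 12.4% (8.46% to 17.3%) in the CIH libraries.

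miR-365-3p, which pools both copies, exceeded miR-365-1-5p by 35.2, 24.96 and 13.9 times in the controls and by 31.0, 94.0 and 5.36 times in the CIH libraries. CIH library 2 was the highest and CIH library 3 the lowest (mean log2 ratio 4.52 ± 0.68 in control and 4.64 ± 2.08 in CIH, SD, n = 3 each, exact permutation p = 0.9).

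For the neighbours, miR-365-3p exceeded miR-193b-3p by 4.56, 3.31 and 2.39 times in the controls. In the CIH libraries the ratio was 11.1, 7.68 and 3.06. It was higher in CIH in each pair, by 1.28, 1.21 and 0.36 on the log2 scale, but CIH library 3 lay below control libraries 1 and 2. The group means of the log2 ratio were 1.73 ± 0.47 in control and 2.67 ± 0.95 in CIH, a difference of 0.95 (SD, n = 3 each, exact permutation p = 0.3). The difference was 0.55 without CIH library 1 and 1.48 without CIH library 3. With the library number as a block, an exact permutation by sign flips within the 3 pairs gave p = 0.25, the smallest that 3 pairs allow.

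**Figure D3:**
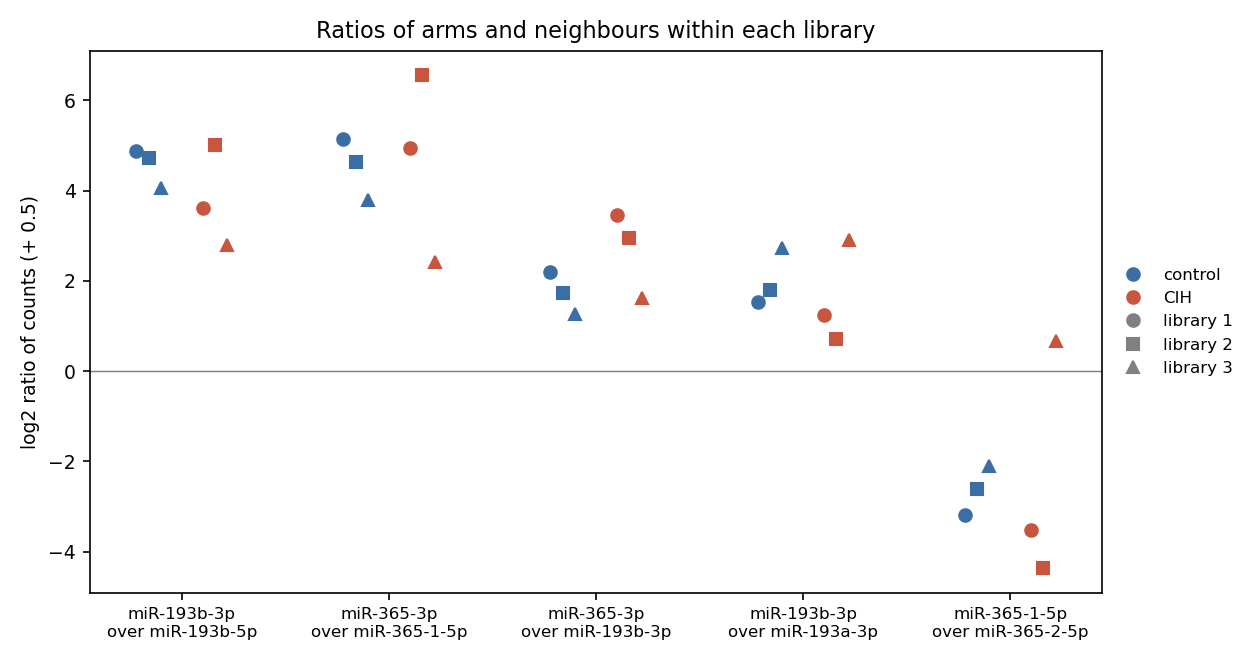
log2 ratio of the counts of 2 products (0.5 counts added) in each control (blue) and CIH (red) library, with a symbol for each library number. The ratio of miR-365-3p over miR-193b-3p is higher in CIH for each library number, and miR-365-1-5p over miR-365-2-5p is above 0 in CIH library 3 alone.

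The arms that belong to one copy each allow the chromosome 16 and chromosome 11 pairs to be set side by side. miR-193a-3p, which has the seed of miR-193b-3p, stood at 13.7, 15.3 and 3.995 CPM in the controls. It stood at 6.68, 10.8 and 2.40 CPM in the CIH libraries, lower in each pair but with overlapping groups (log2 difference -0.71, SE 0.69, edgeR adjusted p = 0.934 over 6 libraries). For those numbered 1 and 2 the value was -0.55 (SE 0.38, adjusted p = 0.454), and leaving out 1 of these libraries moved it from -0.15 without CIH library 1 (adjusted p = 0.811) to -1.10 without CIH library 2 (adjusted p = 0.0314). Without control library 1 it was -0.70 and without control library 2 it was -0.33, neither of them called. The sum of miR-193a-3p and miR-193b-3p was 53.4, 68.4 and 31.0 CPM in the controls and 22.5, 28.4 and 20.6 CPM in the CIH libraries. The groups did not overlap, as for 3.73% of the 456 tested miRNAs, each taken alone, with lower levels in CIH. miR-193b-3p supplied most of this sum, with 74.4%, 77.6% and 87.1% in the controls and 70.3%, 62.1% and 88.4% in the CIH libraries. The log2 ratio of miR-193b-3p over miR-193a-3p was 2.02 ± 0.63 in control and 1.62 ± 1.14 in CIH (SD, n = 3 each, exact permutation p = 0.6).

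The copies differed in which arm had more reads. For miR-193a the 5p arm took 62.9% to 92.1% of the reads, against 2.75% to 12.4% for miR-193b. miR-193a-5p stood at 52.5, 57.3 and 6.78 CPM in the controls and at 77.8, 41.0 and 7.01 CPM in the CIH libraries. The libraries numbered 3 were the lowest in both groups, and the groups overlapped (log2 difference 0.14, SE 0.89, edgeR adjusted p = 0.988).

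miR-365-2-5p, the arm of the chromosome 11 copy of miR-365, stood at 46.7, 43.2 and 19.9 CPM in the controls and at 65.3, 29.8 and 6.48 CPM in the CIH libraries. Its ranges overlapped too (log2 difference -0.21, SE 0.74, edgeR adjusted p = 0.988), and for the libraries numbered 1 and 2 the value had the opposite sign (0.18, SE 0.32, adjusted p = 0.784). Of the reads of both miR-365 5p arms, miR-365-1-5p took 9.82%, 13.9% and 18.8% in the controls and 7.88% and 4.47% in CIH libraries 1 and 2. In CIH library 3 its share was 61.6% (exact 95% interval 54.3% to 68.5%), the only one of the 6 libraries in which the chromosome 16 arm outnumbered the chromosome 11 arm. The log2 ratio of the 2 arms did not separate the groups (-2.63 ± 0.54 in control and -2.41 ± 2.70 in CIH, SD, n = 3 each, exact permutation p = 1). Without CIH library 3 the difference between the group means went from 0.22 to -1.32.

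How far the neighbours varied together was described by the root mean square difference of 2 profiles of log2(CPM + 0.5), each centred on its own mean over the 6 libraries. All products share the same 6 libraries and their depth, and the distance carries no test. Among 32896 pairs of the 257 tested miRNAs with a mean of at least 10 CPM the median distance was 0.93 log2 units. Over the 6 libraries the closest pair of the 7 products was miR-193b-5p with miR-365-1-5p, the low-abundance arms of the 2 neighbouring hairpins on chromosome 16. The pair lay at 0.32, with 3.17% of those pairs closer, but both arms averaged under 10 CPM and were not among the 257. Both stood lowest in CIH library 2 and highest in CIH library 3. This distance was between 0.32 and 0.35 without any one of the other libraries and 0.19 without CIH library 2. Within the libraries numbered 1 and 2 it was 0.34, with 41.3% of pairs closer. There the closest pair of the 7 was miR-193a-5p with miR-365-2-5p, both of chromosome 11, at 0.12 (3.63% closer). The lowest level of miR-193b-5p (0.498 CPM) was about as large as the 0.5 CPM added.

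miR-193b-3p was farther from its own 5p arm (0.68) than that arm was from miR-365-1-5p. Its distance to miR-365-3p was 0.77 and to miR-365-1-5p 0.88, with 35.9% and 45.3% of pairs closer. Within the libraries numbered 1 and 2 these distances were 0.66 and 0.70, with 82.2% and 84.8% of pairs closer. miR-365-3p lay nearer to miR-193a-3p (0.40) and miR-365-2-5p (0.50) of the chromosome 11 copy than to miR-365-1-5p (1.18). Its distance to miR-193a-5p, also of chromosome 11, was 0.72, near the 0.77 to miR-193b-3p. miR-365-3p, miR-193a-3p and miR-365-2-5p were each at their lowest in CIH library 3. Without CIH library 3 the distances of miR-365-3p were 0.40 from miR-193a-3p, 0.27 from miR-365-2-5p and 0.80 from miR-365-1-5p. miR-365-1-5p thus stayed the farthest, with miR-365-2-5p then nearest of the 3. Within the libraries numbered 1 and 2 the same distances were 0.45, 0.28 and 0.61, with 60.0%, 29.8% and 78.2% of pairs closer. The median distance of the 32896 pairs was 0.39 in that set. There miR-193a-5p was the nearest product to miR-365-3p (0.24), and the chromosome 16 arm miR-193b-5p (0.33) was nearer than miR-193a-3p.

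**Figure D4:**
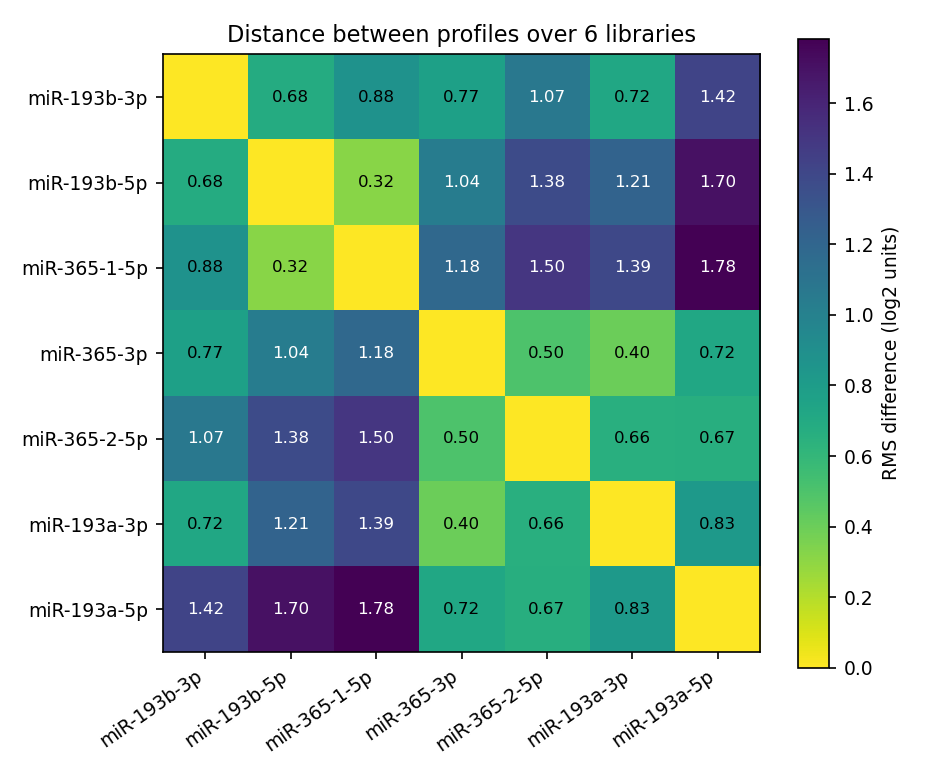
Distance between the profiles of each pair of products over the 6 libraries, as the root mean square difference of centred log2(CPM + 0.5), with the value in each square and lighter squares for closer pairs. The chromosome 16 arms miR-193b-5p and miR-365-1-5p are closest at 0.32, and miR-365-3p is closest to miR-193a-3p at 0.40.

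**Figure D5:**
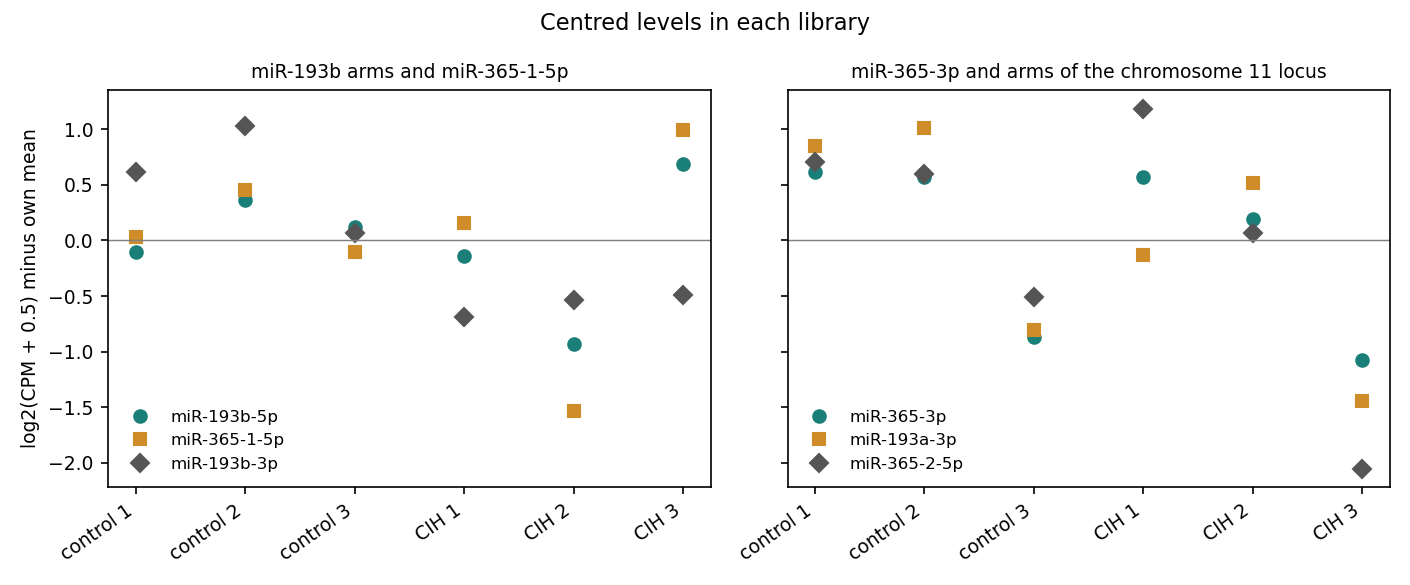
log2(CPM + 0.5) minus its mean over the 6 libraries, for the miR-193b arms with miR-365-1-5p (left) and for miR-365-3p with 2 arms of the chromosome 11 copy (right). On the left the 2 5p arms are lowest in CIH library 2 and highest in CIH library 3, and on the right all 3 products are lowest in CIH library 3.

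Among the other miRNAs with a mean of at least 10 CPM, the nearest to miR-193b-3p by the same distance was miR-3068-3p (0.36), followed by miR-1843a-5p (0.39), miR-3068-5p, miR-103-3p and miR-450b-5p (each 0.40). miR-3068-3p stood at 80.6, 96.0 and 80.6 CPM in the controls and at 49.3, 62.3 and 61.5 CPM in the CIH libraries. Nearness to miR-193b-3p chose these 5, so their pattern between the groups follows from that choice, and the ranges of miR-103-3p and miR-450b-5p overlapped between the groups. Over the 4 libraries numbered 1 and 2 the nearest was miR-542-3p (0.11). By total counts its CIH library numbered 3 (980.7 CPM) was above its control (609 CPM), and after TMM scaling it was below (884 against 959 CPM). The nearest to miR-365-3p were miR-871-3p (0.20), miR-484 (0.22) and miR-339-3p (0.24), all low in the libraries numbered 3 of both groups.

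Other miRNAs reported to act on brown and beige fat were compared from 2 lists, which were chosen with earlier results of these data known. Of 12 reported to favour it, all were tested and 0 were called over the 6 libraries, with a median log2 difference of -0.15 against 0.04 for all tested miRNAs. In the fit of the libraries numbered 1 and 2, 1 fell and 0 rose (median -0.10 against -0.03 for all), where 5.23% of 459 miRNAs were called lower and 4.14% higher. The one that fell was miR-203-3p, which is also an epithelial miRNA, by 1.24 on the log2 scale (SE 0.31, edgeR adjusted p = 0.00751). In pairs 1 and 2 it went from 54.7 and 49.0 CPM (control) to 19.9 and 19.4 CPM (CIH), and in the pair numbered 3 the control held 6.66 CPM and the CIH library 7.55 CPM. The log2 difference of pair 3 was 0.17 by total counts and -0.59 after TMM scaling, so its direction there depended on the scaling.

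The most abundant of this list were miR-378a-3p, encoded in the gene of the coactivator PGC-1 beta, and miR-26a-5p. miR-378a-3p made up 4.36%, 3.87% and 3.87% of the controls and 2.90%, 2.58% and 0.562% of the CIH libraries, without overlap, as for 3.73% of tested miRNAs with lower levels in CIH (log2 difference -1.19, SE 0.70, edgeR adjusted p = 0.885). The libraries numbered 1 and 2 gave -0.44 (adjusted p = 0.196) and pair 3 gave -2.78 by total counts and -3.59 after TMM scaling. miR-26a-5p made up 0.376% to 3.09% of the controls and 1.25% to 2.45% of the CIH libraries (log2 difference 0.01, SE 0.64, adjusted p = 0.996).

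Of 11 miRNAs reported to restrain brown or beige fat, 8 were tested. miR-133b-3p is not a name that all 6 tables list, and miR-133a-3p and miR-494-3p did not pass the filter on low counts. Of the 8, 0 were called over the 6 libraries (median 0.04, the same as for all tested miRNAs). In those numbered 1 and 2, 1 rose and 0 fell (median -0.05), in a fit that called 4.14% of 459 miRNAs higher. The one that rose was miR-155-5p, an inflammation-linked miRNA reported to oppose brown adipocyte differentiation, by 0.76 on the log2 scale (SE 0.23, edgeR adjusted p = 0.0340). It stood at 154, 176 and 90.7 CPM in the controls and at 308, 207 and 525 CPM in the CIH libraries. The most abundant of this list, let-7i-5p and miR-27a-3p, had log2 differences of 0.04 (SE 0.71) and -0.12 (SE 0.77), with edgeR adjusted p-values of 0.991 and 0.988 over 6 libraries.

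Summed markers of several cell types were, like miR-193b-3p, lower in CIH in each pair by total counts. The 6 miRNAs abundant in fat made up 25.6%, 25.7% and 60.1% of the controls. In the CIH libraries they made up 20.1%, 17.4% and 32.9%, lower in each pair. This sum was highest in control library 3, where miR-193b-3p was lowest of the controls. miR-148a-3p was most of it in the libraries numbered 3 (49.4% and 24.9%), and miR-26a-5p rose in pair 3 (0.376% to 1.25%). The 2 endothelial markers together fell in pairs 1 and 2 but rose in pair 3, from 33.8 to 100 CPM. The summed level of 7 epithelial miRNAs was 409, 334 and 76.3 CPM in the controls and 170, 126 and 18.6 CPM in the CIH libraries, lower in CIH in each pair, with miR-141-3p and miR-429-3p at 0 in both libraries numbered 3. Except in CIH library 3, most of this sum was miR-205-5p, at 270, 253 and 67.8 CPM in the controls and 101, 75.2 and 1.86 CPM in the CIH libraries. Other members did not all follow, since miR-200b-3p stood at 46.9, 13.8 and 0.969 CPM in the controls and 25.1, 15.7 and 3.99 CPM in the CIH libraries. The 4 fibroblast and stromal miRNAs summed to 0.652% to 1.63% of the controls, to 1.11% and 1.13% of CIH libraries 2 and 1, and to 6.67% of CIH library 3, the library in which miR-365-1-5p and miR-193b-5p were highest. The part of any of these in the values above was not tested. In bulk RNA, fewer cells of a type and less RNA per cell cannot be told apart.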

How the data were processed

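Small RNA of 3 control and 3 CIH adipocyte samples was analysed from 1 deposited table per library. The authors deposited raw read counts for each mature miRNA. In 3 tables the header says FPKM, but all entries are whole numbers and their totals differ. GRCm38, DESeq 1.8.3 and featureCounts 1.5.0-p3 are named in the submitters' processing notes. Not given in the sources used here are the aligner, the trimming, the release of miRBase and the treatment of reads that match several miRNAs. CPM is the count divided by the library total and scaled to a common total.

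Counts of the 929 known names in all 6 tables (0 columns of other samples) were tested with edgeR 4.0.16 (quasi-likelihood F test, robust, TMM, filterByExpr) under R 4.3.3. Group was the sole term, with Benjamini-Hochberg adjustment at 0.05. The fits covered all 6 libraries, or the 4 numbered 1 and 2. All 4 products passed the filter in both. Ratios were compared with two-sided exact permutation tests (scipy 1.17.1). DESeq2 1.42.0, limma-voom (limma 3.58.1), other scalings and filters, the replicate block and leaving out each library were alternatives. Leaving out libraries in the profile distances was added after the data were examined. The fits were tested on simulated counts, in which expected levels differed between libraries of a group by depth alone. Of 2-fold and 4-fold changes, the fit of 6 libraries called 1.05% and 13.8%, with 0 calls among 240 unchanged miRNAs. The fit of those numbered 1 and 2 called 66.3% and 96.9%, with 7 calls among 251 unchanged. The unchanged were 240 of 429 and 251 of 447 simulated miRNAs tested. Recovery after adjustment depends on the share changed, so these rates hold for that share and not for the data themselves. An absence of calls over the 6 libraries therefore says little about changes of this size.

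Libraries of equal number deviated together from their group means (r = 0.31, 0.33 and 0.41 across miRNAs). Differences are therefore also given by library number, as pairs, and the replicate block was an alternative. The main fits did not use the pairs. Control library 1 with CIH library 2 (0.40) and control library 2 with CIH library 1 (0.21) did so too, and among the libraries numbered 1 and 2 alone r was 0.03, so these values mostly set number 3 apart. In the pair numbered 3 the TMM factor was 0.636 (control) and 1.11 (CIH). The products, the lists and the fit of the libraries numbered 1 and 2 were chosen with earlier results of these data known. The text names the 4 products, the 3 arms of the second copy, the 5 and 3 miRNAs nearest to miR-193b-3p and miR-365-3p, and of each list the called and the 2 most abundant. miR-542-3p was named after its value was seen.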

Additional observations from a re-analysis of the deposited data

How the results depend on the processing

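Over the 6 libraries, 0 miRNAs rose or fell under each of 17 alternatives, and miR-193b-3p kept its direction in all 17 (-1.16 to -1.54, smallest adjusted p 0.305). With the replicate block it was -1.33 (adjusted p = 0.640). Within the libraries numbered 1 and 2 it was called in 9 of 14 alternatives, with -1.32 and an adjusted p of 0.000995 in the replicate block. It lost the call with a minimum mean of 10 CPM (-1.25, adjusted p = 0.0582) and without the 10 most abundant miRNAs (-1.63, adjusted p = 0.0533), and leaving out libraries gave -0.96 to -1.58. The 19 that rose became 7 with total counts alone, 7 with the 10 CPM minimum, 3 without the 10 most abundant, 31 at an adjusted p under 0.1 and 3 to 50 on leaving out a library. The 24 that fell became 9 with the 10 CPM minimum, 9 without the 10 most abundant and 6 to 47 on leaving out a library, the 50 and the 47 both without CIH library 2. Where 1 library remained in a group, its spread was taken from the other group. The replicate block changed no call of a named product.

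Signs near 0 changed. Over 6 libraries, miR-365-1-5p went to 0.0583 with total counts alone and spanned -0.91 to 0.27 on leaving out libraries. miR-365-3p spanned -0.44 to 0.12 and miR-365-2-5p -0.91 to 0.28 in the same way, and miR-193a-5p -0.47 to 0.66. miR-193a-5p was -0.15 with limma-voom, -0.11 with the replicate block and -0.0875 with the set of libraries as a term. Within the libraries numbered 1 and 2, miR-365-3p was 0.0107 with the 10 CPM minimum and spanned -0.12 to 0.0400 on leaving out libraries, miR-193a-5p -0.14 to 0.53 and miR-365-2-5p -0.31 to 0.57. On leaving out libraries, the difference in log2 ratio spanned -0.84 to 1.23 for miR-365-3p over miR-365-1-5p, 0.55 to 1.48 for miR-365-3p over miR-193b-3p, -1.05 to 0.0480 for miR-193b-3p over miR-193a-3p and -1.32 to 1.20 for miR-365-1-5p over miR-365-2-5p. In the pair numbered 3, TMM scaling gave -1.35 for miR-193b-3p, -0.0778 for miR-193b-5p (0.57 by total counts), -1.01 for miR-365-3p and 0.35 for miR-365-1-5p. Where no scaling is named, the cause was not tested. Counts of 5 to 29 and their spread limit what can be said of miR-193b-5p.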
